A study of Mus musculus with 16 samples.

Results

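The 40 genes described here encode the enzymes and carriers of the urea cycle and of the breakdown of single amino acids in the liver. They were taken by gene symbol from the deposited table of 17003 genes, and all 40 symbols had a row. All 40 also averaged 0.1 FPKM or more, the minimum set for the 12770 genes that were tested. FPKM counts sequenced fragments after division by transcript length and library size, so that levels can be set side by side between genes.

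Liver RNA was sequenced from 16 male mice aged 8 weeks, 8 of the genotype Fgl1 WT and 8 of the genotype Fgl1 LKO, with 1 library for each mouse. Fgl1 encodes fibrinogen-like protein 1, a protein that hepatocytes secrete. In Fgl1 LKO mice, floxed Fgl1 alleles were cut by a CRE recombinase driven by the albumin promoter, which is active in hepatocytes, so that other liver cells keep the gene. The Fgl1 WT mice were littermates that carried the floxed alleles but no CRE, the labels call all mice fed, and the diet was normal chow.

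The liver removes the nitrogen of amino acids in stages. Aminotransferases and deaminases strip it off as glutamate or ammonia, and the urea cycle in mitochondria and cytosol of hepatocytes turns ammonia into urea. The remaining carbon chains are oxidized or made into glucose, and several of these enzymes are known to follow dietary protein, glucagon and glucocorticoids. Periportal hepatocytes carry most of the urea cycle and of the enzymes for histidine and serine.

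Fgl1 itself was between 158 and 1331 FPKM in Fgl1 WT and between 13.2 and 89.99 FPKM in Fgl1 LKO, with no overlap. Its log2 fold change was -3.11 ± 0.49 (SE), with an adjusted p of 0.0725 in limma with Benjamini-Hochberg adjustment. Summed FPKM ranged from 673153 to 786188 over the mice, and the number of reads behind a value is unknown. Of the marker lists, hepatocyte genes summed to between 50215 and 90610 FPKM in a mouse. Exocrine pancreas, kidney and lymphocyte lists stayed at 2.63 FPKM or below. The adipocyte list stayed at 0.45 FPKM or below in Fgl1 WT and reached 7.04 FPKM in Fgl1 LKO. Erythroid genes summed to between 390 and 946 FPKM in Fgl1 WT and between 368 and 1108 FPKM in Fgl1 LKO. Replicate 8 of Fgl1 LKO stood apart in 1 gene, with 255.1 FPKM of Spp1, an osteopontin gene of bile duct cells and injured liver, against 20.9 to 76.3 FPKM in the other mice. Of the other bile duct cell genes listed, Epcam was also highest in that mouse, at 3.35 FPKM. Krt19, Krt7, Sox9 and Cftr were highest in other mice. Fold changes of members that turned sign or moved over 1.5 times without replicate 8 of Fgl1 LKO are given with and without it.

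The members were among the most abundant liver transcripts. By mean FPKM, 36 of the 40 lay above the 90th percentile of the genes tested and 30 had a mean of at least 100 FPKM. The 5 highest means were those of Ass1 at 2528, Bhmt at 2192, Gnmt at 1729, Hpd at 1306 and Cdo1 at 1089 FPKM. The ranges of neighbours in this order overlapped over the 16 mice, since Ass1 ran from 1632 to 3854, Bhmt from 1239 to 3951 and Gnmt from 1209 to 2705 FPKM. At the other end were Acmsd, the decarboxylase that diverts tryptophan carbon away from NAD, at 7.90 FPKM, and Sdsl, a relative of serine dehydratase, at 9.08 FPKM. Together the members made up between 1.71% and 3.52% of the summed FPKM of a mouse, lowest in replicate 8 and highest in replicate 3 of Fgl1 LKO.

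**Figure D1:**
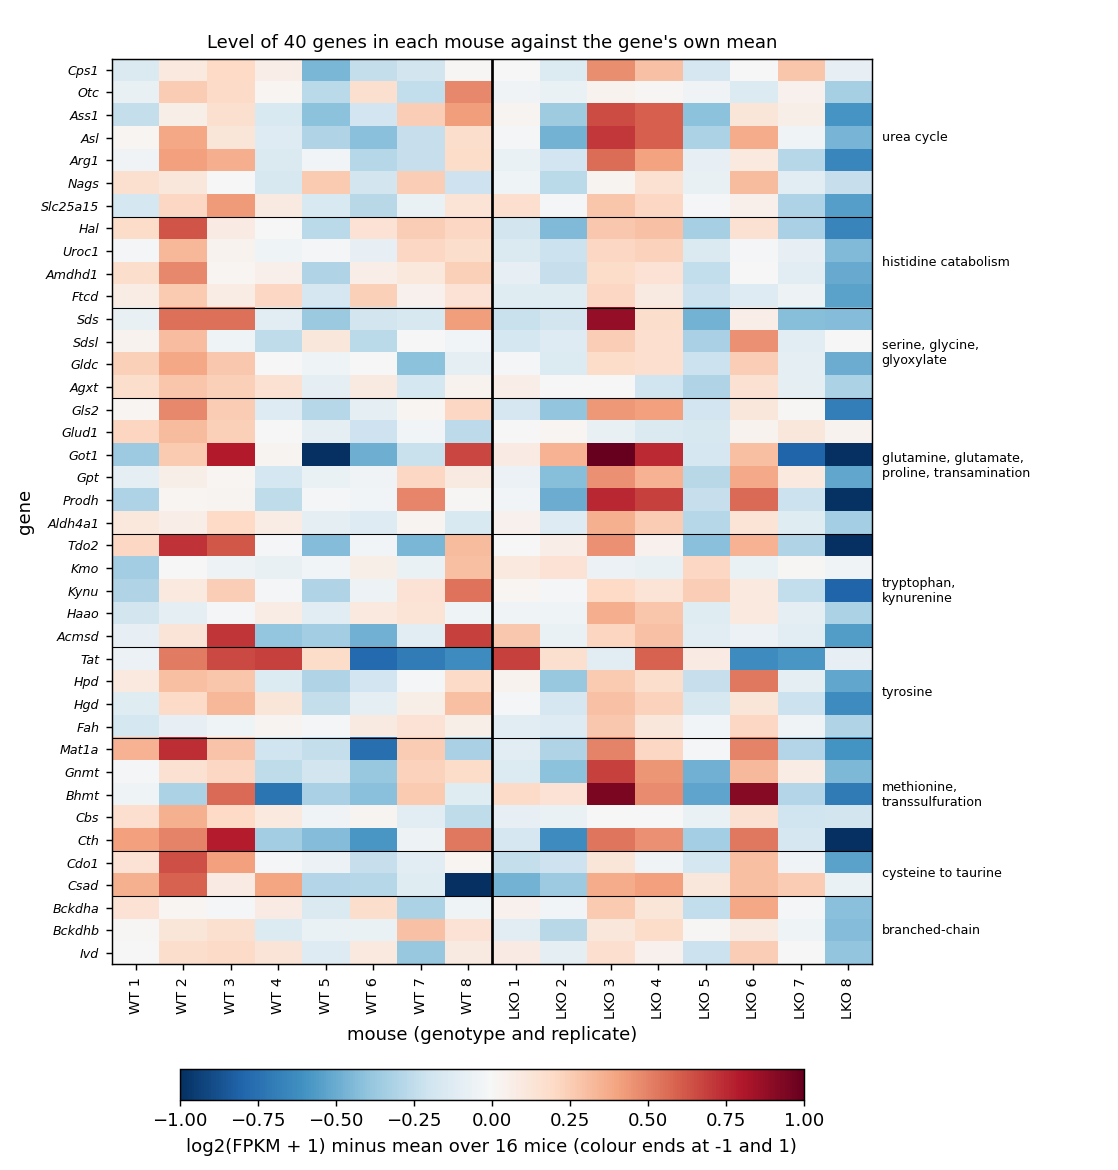
Each cell shows log2(FPKM + 1) of 1 gene in 1 mouse minus the mean of that gene over the 16 mice, with genes grouped by role and the black line between Fgl1 WT (left) and Fgl1 LKO (right). Whole columns share a colour, with Fgl1 WT replicate 2 and Fgl1 LKO replicate 3 high for most genes and Fgl1 LKO replicate 8 low, and no row separates the genotypes.

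The first comparison was that of the genotypes. In the liver as a whole, none of the 12770 genes passed an adjusted p of 0.05 (0% of genes), and so none of the 40 members did. At an unadjusted p under 0.05 in limma, 895 genes were found (7.01%), and among them 2 members, Ftcd and Hal, both of histidine breakdown and both lower in Fgl1 LKO. The 2 of 40 is close to that background share. The median log2 fold change of the members was -0.05 against 0.01 for all genes tested, with 14 members higher and 26 lower in Fgl1 LKO, where 5644 of the 12770 genes were lower. Without replicate 8 of Fgl1 LKO the split was 23 higher and 17 lower and no member passed an unadjusted p of 0.05, with a median of 0.02. By gene, 9 members then turned sign and 16 more moved by over 1.5 times. The labels give each mouse a number but name no runs. The numbers were grouped here, as a choice, into 4 runs, 36 to 38, 48 to 55, 60 to 64 and 69 to 72. The first run holds 3 Fgl1 WT mice and no Fgl1 LKO mouse, so that its part cannot be told apart from genotype there. Without these 3 mice the median of the members was 0.01 with no unadjusted p under 0.05, and with the run as a term in the model it was -0.01.

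No member separated the genotypes, as the ranges of Fgl1 WT and Fgl1 LKO overlapped for all 40. The same count was not made over all genes tested, so that of the members is a description only. The 95% confidence intervals of the fold changes show what size of difference the 16 mice leave possible. For 32 of the 40 members the interval lay within 0.5 of 0 on the log2 scale in either direction. The share of all genes tested with such an interval was not taken. Over all members the lowest bound was -0.72, for Cth, and the highest 0.82, for Got1. The 2 genes with an unadjusted p under 0.05 were the only members whose interval left out 0. In bulk RNA such a value cannot tell fewer cells of a type from less RNA per cell.

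**Figure D2:**
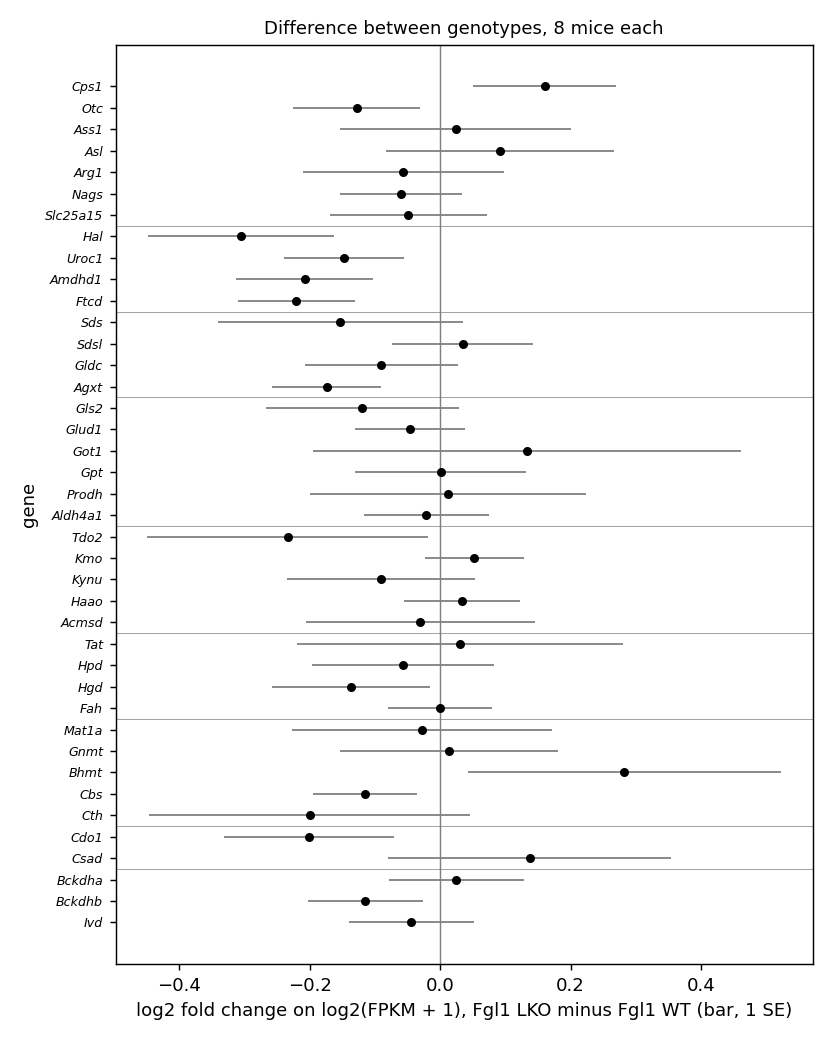
Points are log2 fold changes, Fgl1 LKO minus Fgl1 WT, on the log2(FPKM + 1) scale for the 40 members in order of role, and bars are 1 standard error, with 8 mice in each genotype. The values run from -0.31 for Hal to 0.28 for Bhmt, and the 4 histidine genes all lie left of 0.

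The urea cycle begins in mitochondria with Cps1, carbamoyl phosphate synthetase, which fixes ammonia and is activated by the product of Nags. Cps1 lies at chr1:67161988-67270418 of GRCm39 on the plus strand, with 38 exons in its canonical transcript. It ranged from 683 to 1079 FPKM with a median of 898 in Fgl1 WT, and from 836 to 1295 FPKM with a median of 936 in Fgl1 LKO. The ranges overlapped over most of their length, and the log2 fold change was 0.16 ± 0.11 (SE). Nags, N-acetylglutamate synthase, was far lower, at 29.4 to 41.1 FPKM with a median of 35.4 in Fgl1 WT. In Fgl1 LKO it ran from 28.1 to 42.7 FPKM with a median of 32.6, inside nearly the same limits. Its log2 fold change was -0.06, and -0.03 without replicate 8 of Fgl1 LKO.

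Otc, on the X chromosome, joins carbamoyl phosphate to ornithine. It ran from 145 to 244 FPKM with a median of 186 in Fgl1 WT and from 139 to 181 FPKM with a median of 171 in Fgl1 LKO. All 8 Fgl1 LKO mice were below the Fgl1 WT median but the ranges overlapped, and the log2 fold change of -0.13 ± 0.10 (SE) had an exact permutation p of 0.229. Slc25a15 carries ornithine into mitochondria. It ranged from 79.4 to 129.8 FPKM with a median of 97.4 in Fgl1 WT and from 65.3 to 117 FPKM with a median of 97.2 in Fgl1 LKO. The log2 fold change of -0.05 became 0.03 without replicate 8 of Fgl1 LKO.

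The cytosolic steps were the more variable ones. Ass1, argininosuccinate synthetase and the most abundant member, ran from 1850 to 3283 FPKM with a median of 2379 in Fgl1 WT. In Fgl1 LKO it ran from 1632 to 3854 FPKM with a median of 2526. The Fgl1 LKO mice held both the highest and the lowest value of the series. Asl, argininosuccinate lyase, ran from 155 to 272 FPKM with a median of 200 in Fgl1 WT and from 149 to 340 FPKM with a median of 204 in Fgl1 LKO. Arg1, the arginase that releases urea, ran from 797 to 1295 FPKM with a median of 951 in Fgl1 WT and from 618 to 1436 FPKM with a median of 925 in Fgl1 LKO. For all 3 the Fgl1 LKO range enclosed that of Fgl1 WT. The log2 fold changes were 0.02 for Ass1, 0.09 for Asl and -0.06 for Arg1, and without replicate 8 of Fgl1 LKO they were 0.11, 0.16 and 0.03. Exact permutation p-values for the 7 urea cycle genes, over all 12870 assignments of the mice, ran from 0.175 for Cps1 to 0.899 for Ass1.

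**Figure D3:**
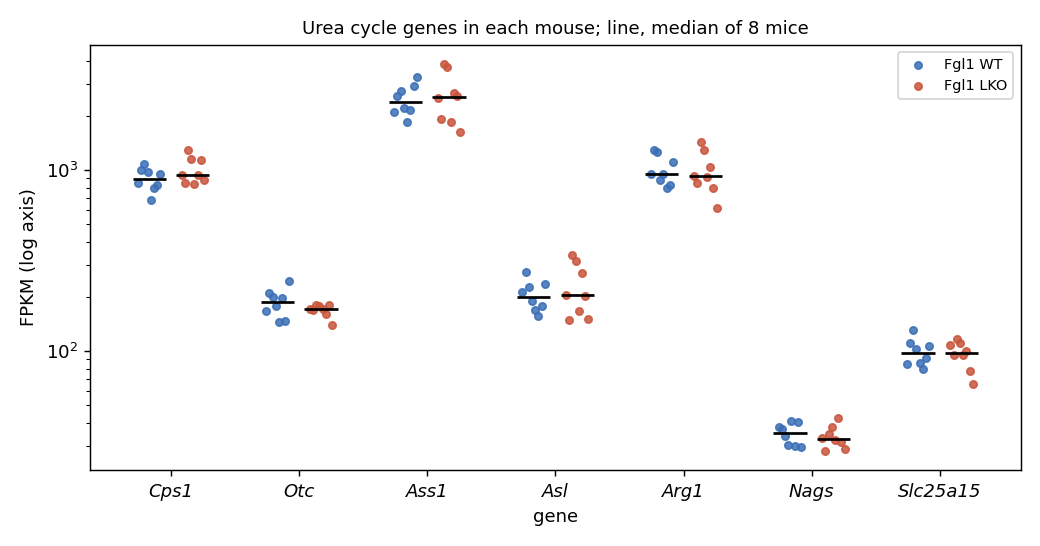
FPKM on a log axis of the 7 urea cycle genes, 1 point for each mouse with Fgl1 WT in blue and Fgl1 LKO in red, and a line at the median of 8 mice. The genotypes overlap for every gene, and Ass1 lies highest and Nags lowest.

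The 4 enzymes that take histidine to glutamate all had lower means in Fgl1 LKO, and of the roles with several pairs of genes theirs had the highest median correlation between mice. Hal, histidine ammonia-lyase, opens the pathway, Uroc1 and Amdhd1 carry out the next steps, and Ftcd passes the formimino group to folate. Hal and Amdhd1 are neighbours on chromosome 10. Hal lies at chr10:93324629-93355166 on the plus strand and Amdhd1 at chr10:93359198-93375895 on the minus strand of GRCm39, so that their ends face each other across 4031 bases. Ftcd lies at chr10:76411475-76426245, and Uroc1 on chromosome 6.

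The 250 bases before the transcription start of these 4 genes are shown because the 4 genes varied together. The sequences are from RefSeq on GRCm38.p6, read 5′ to 3′ on the strand of the gene, at chr10:93488518-93488767 (plus strand) for Hal, chr6:90333039-90333288 (plus strand) for Uroc1, chr10:93540034-93540283 (minus strand) for Amdhd1 and chr10:76575398-76575647 (plus strand) for Ftcd. Capitals mark matches to 5 short motifs on either strand. The core of a TATA box was searched as TATAAA and the CCAAT box by its name. An E-box was searched as CACGTG. Partial elements for cAMP were searched as TGACG and those for glucocorticoids as AGAACA, and no motif contains another.
Hal: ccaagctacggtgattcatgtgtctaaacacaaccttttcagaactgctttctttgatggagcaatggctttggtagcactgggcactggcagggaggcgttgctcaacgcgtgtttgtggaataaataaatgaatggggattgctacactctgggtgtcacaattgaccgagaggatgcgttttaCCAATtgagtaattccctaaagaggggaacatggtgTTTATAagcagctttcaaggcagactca
Uroc1: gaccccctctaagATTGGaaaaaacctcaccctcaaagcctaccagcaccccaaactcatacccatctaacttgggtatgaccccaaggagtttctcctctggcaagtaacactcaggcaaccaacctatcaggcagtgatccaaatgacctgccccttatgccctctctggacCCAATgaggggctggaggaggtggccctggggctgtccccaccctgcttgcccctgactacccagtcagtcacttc
Amdhd1: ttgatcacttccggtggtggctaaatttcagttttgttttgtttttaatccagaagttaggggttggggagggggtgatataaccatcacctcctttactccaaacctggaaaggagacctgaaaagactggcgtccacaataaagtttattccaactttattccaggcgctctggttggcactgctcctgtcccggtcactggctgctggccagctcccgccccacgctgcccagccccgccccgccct
Ftcd: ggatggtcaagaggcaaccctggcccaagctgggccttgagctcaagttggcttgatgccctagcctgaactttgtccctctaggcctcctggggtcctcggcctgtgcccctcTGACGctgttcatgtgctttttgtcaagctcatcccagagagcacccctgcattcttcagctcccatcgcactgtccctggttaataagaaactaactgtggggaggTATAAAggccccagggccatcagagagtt

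The 4 windows had little in common at this level. Hal held the reverse complement of TATAAA 28 bases and CCAAT 64 bases before its start, and Ftcd held TATAAA 29 bases and TGACG 136 bases before its start. Uroc1 had CCAAT at 76 bases and its reverse complement at 237 bases, and Amdhd1 had none of the motifs. Among all 32851 promoter windows in the table, 12.4% held TATAAA, 33.8% CCAAT, 6.02% CACGTG, 17.8% TGACG and 16.1% AGAACA. Of the 29 members with a window, 4 held TATAAA, 14 CCAAT, 2 CACGTG, 3 TGACG and 3 AGAACA. A match of this kind is a description of the letters and not a binding site.

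Ftcd ranged from 127 to 171 FPKM with a median of 154 in Fgl1 WT and from 97.9 to 164 FPKM with a median of 131 in Fgl1 LKO. Of the 8 Fgl1 LKO mice, 7 were below the Fgl1 WT median, but the ranges overlapped. The log2 fold change was -0.22 ± 0.09 (SE), with an unadjusted p of 0.0251, an adjusted p of 0.696 in limma and an exact permutation p of 0.0267. The exact rank-sum test gave 0.0650 for the same values.

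Hal ranged from 116 to 218 FPKM with a median of 158 in Fgl1 WT and from 88.6 to 172 FPKM with a median of 118 in Fgl1 LKO. The 2 genotypes overlapped between those limits, with 6 of the 8 Fgl1 LKO mice below the Fgl1 WT median. The log2 fold change was -0.31 ± 0.14 (SE), with an unadjusted p of 0.0457, an adjusted p of 0.696 in limma and an exact permutation p of 0.0678. Amdhd1 ranged from 56.9 to 98.3 FPKM in Fgl1 WT and from 49.3 to 79.9 FPKM in Fgl1 LKO, with a log2 fold change of -0.21. Uroc1 ranged from 122 to 163 FPKM in Fgl1 WT and from 94.9 to 152 FPKM in Fgl1 LKO, with a log2 fold change of -0.15. All 4 genes thus had the same sign, with a median of -0.21, and for each of them replicate 8 was the lowest mouse. Their signs stayed below 0 without replicate 8 of Fgl1 LKO, with a median of -0.15 and with Uroc1 at -0.09, but Ftcd then had an unadjusted p of 0.0511 and Hal of 0.101. When the run of mouse numbers entered the limma fit, the unadjusted p was 0.0413 for Ftcd and 0.195 for Hal. Of all 40 members 1, Ftcd, had an exact permutation p under 0.05, and the share of all genes tested was not taken for this test.

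For the other roles the differences were small and of mixed sign. In serine, glycine and glyoxylate metabolism, Agxt, the peroxisomal enzyme that removes glyoxylate, had means of 224 ± 24.1 FPKM in Fgl1 WT and 198 ± 23.4 FPKM in Fgl1 LKO (SD, n = 8), with an unadjusted limma p of 0.0513. Gldc, of the glycine cleavage system, spanned 53.1 to 98.8 FPKM over the mice with a log2 fold change of -0.09, and of -0.03 without replicate 8 of Fgl1 LKO. Sds, serine dehydratase, spanned 103 to 264 FPKM with a log2 fold change of -0.15. Its relative Sdsl spanned 6.97 to 12.7 FPKM with a log2 fold change of 0.03. Sds and Sdsl lie back to back on chromosome 5 with 3524 bases between them, and their correlation over the mice was 0.56.

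Of the genes for glutamine, glutamate, proline and transamination, 3 had higher and 3 lower means of log2 values in Fgl1 LKO. Gls2, the liver glutaminase, spanned 81.6 to 185 FPKM, and Glud1, glutamate dehydrogenase, spanned 363 to 541 FPKM. Their log2 fold changes were -0.12 and -0.05. Gpt, alanine aminotransferase, spanned 102 to 201 FPKM with a log2 fold change of 0.00. Prodh and Aldh4a1, which take proline to glutamate, spanned 41.7 to 142 and 102 to 166 FPKM with log2 fold changes of 0.01 and -0.02. Without replicate 8 of Fgl1 LKO the log2 fold change was -0.03 for Gls2, 0.07 for Gpt, 0.15 for Prodh and 0.03 for Aldh4a1. Got1 is described with the most variable genes.

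In tryptophan breakdown, Tdo2, the first enzyme, ranged from 444 to 1002 FPKM in Fgl1 WT and from 275 to 836 FPKM in Fgl1 LKO, with a log2 fold change of -0.23 ± 0.22 (SE). Kmo, Kynu, Haao and Acmsd act on its products. Over the mice Kmo spanned 86.4 to 136 FPKM, Kynu 45.5 to 117 FPKM, Haao 348 to 559.9 FPKM and Acmsd 4.84 to 13.2 FPKM. Their log2 fold changes lay between -0.09 for Kynu and 0.05 for Kmo, with 0.03 for Haao and -0.03 for Acmsd. Without replicate 8 of Fgl1 LKO the log2 fold change of Tdo2 was -0.09, that of Kynu 0.02, that of Haao 0.08 and that of Acmsd 0.05.

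In tyrosine breakdown, Hpd, the dioxygenase after Tat, spanned 895 to 1849 FPKM. Hgd and Fah, which act later, spanned 241 to 469 FPKM and 364 to 541 FPKM. The log2 fold changes were 0.03 for Tat, -0.06 for Hpd, -0.14 for Hgd and 0.00 for Fah. Without replicate 8 of Fgl1 LKO those of Hpd, Hgd and Fah were 0.01, -0.06 and 0.04. Around methionine, Mat1a, which makes S-adenosylmethionine, spanned 436 to 1229 FPKM, and Cbs, which joins homocysteine to serine, spanned 212 to 323 FPKM. The log2 fold changes were -0.03 for Mat1a, 0.01 for Gnmt, 0.28 ± 0.24 (SE) for Bhmt, -0.11 for Cbs and -0.20 ± 0.25 (SE) for Cth. Without replicate 8 of Fgl1 LKO those of Mat1a, Gnmt and Cth were 0.06, 0.08 and -0.07. The value of Bhmt, which remethylates homocysteine, was the highest of any member and had an exact permutation p of 0.295.

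Cdo1 and Csad lead from cysteine to taurine. Cdo1 spanned 738 to 1668 FPKM with a log2 fold change of -0.20, and Csad had a log2 fold change of 0.14. The branched-chain genes Bckdha and Bckdhb encode subunits of the ketoacid dehydrogenase and spanned 109 to 191 and 28.6 to 48.0 FPKM. Ivd, of leucine breakdown, spanned 49.2 to 77.2 FPKM. Their log2 fold changes were 0.02, -0.11 and -0.04, and without replicate 8 of Fgl1 LKO 0.09, -0.06 and 0.01.

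None of the further genes of amino acid metabolism differed at the adjusted threshold either. Of 67 further enzymes tested, 1 had an unadjusted p under 0.05. That was Mtr, methionine synthase, which averaged 1.33 FPKM in Fgl1 WT and 1.62 FPKM in Fgl1 LKO, with an unadjusted p of 0.0208 in limma. Gpt2 and Psph came next at 0.0741 and 0.0999. Of 17 genes for transport and ammonia, Slc25a22, a mitochondrial glutamate carrier, averaged 50.4 FPKM in Fgl1 WT and 63.9 FPKM in Fgl1 LKO with an unadjusted p of 0.0239. Slc43a1 and Aqp9 followed at 0.0678 and 0.138. Of 13 regulators none had an unadjusted p under 0.05, and the smallest values were those of Hnf4a at 0.148, Ppargc1a at 0.161 and Ppara at 0.210. All adjusted p-values in these 3 lists were 0.696 or above.

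Markers of other liver cells were set beside these values. The 6 Kupffer cell genes were all higher in Fgl1 LKO, 2 of them with an unadjusted p under 0.05, and their summed level ran from 59.0 to 121 FPKM in Fgl1 WT and from 72.7 to 154 FPKM in Fgl1 LKO. Of the cholangiocyte genes 5 of 5 tested were higher in Fgl1 LKO, of the endothelial and of the stellate cell genes 5 of 6 each, while 5 of 6 hepatocyte genes were lower. None of these 4 lists had a gene with an unadjusted p under 0.05 in limma. By the exact permutation test the hepatocyte gene Serpina1a, lower in Fgl1 LKO, had a p of 0.0402. The cholangiocyte list summed to 24.7 to 56.1 FPKM in Fgl1 WT and, with the high Spp1 of replicate 8, up to 262 FPKM in Fgl1 LKO. The hepatocyte list summed to 54882 to 90610 FPKM in Fgl1 WT and 50215 to 71573 FPKM in Fgl1 LKO, and the stellate cell list to 53.3 to 92.8 FPKM and 45.3 to 113 FPKM. No gene of these 5 lists was at 0 in all mice, and the part of these cells in the members' values was not tested.

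Within a genotype the members differed from mouse to mouse more than most of the genes tested did, on the log2(FPKM + 1) scale. The standard deviation left after removing the genotype had a median of 0.26 log2 units over the members and 0.17 over all genes tested. Of the 40 members 35 lay above the middle of all genes. The added 1 shrinks this measure for genes of low FPKM, and 36 of the 40 members were above the 90th percentile of level. Genes of like level were not compared. The highest mouse exceeded the lowest by between 1.49 and 5.70 times, with a median of 1.99 times. The steadiest members were Kmo, kynurenine 3-monooxygenase, with a standard deviation of 0.15, and Fah, fumarylacetoacetase, with 0.15. The 5 most variable were Got1, Tat, Cth, Bhmt and Csad.

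Got1, the cytosolic aspartate aminotransferase at chr19:43488188-43513674 of GRCm39, had the widest spread of all members, with a standard deviation of 0.73. It ranged from 45.0 to 183 FPKM with a median of 98.4 in Fgl1 WT and from 44.1 to 251 FPKM with a median of 121 in Fgl1 LKO. The log2 fold change was 0.13 ± 0.33 (SE), and 0.32 without replicate 8 of Fgl1 LKO. Replicate 5 of Fgl1 WT and replicate 8 of Fgl1 LKO were at the bottom, and replicate 3 of both genotypes at the top. Its mitochondrial counterpart Got2, no member, stayed between 237 and 313 FPKM.

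Cth, which cleaves cystathionine to cysteine, ranged from 138 to 359 FPKM with a median of 239 in Fgl1 WT and from 102 to 301 FPKM with a median of 184 in Fgl1 LKO. Bhmt ranged from 1239 to 3042 FPKM with a median of 1768 in Fgl1 WT and from 1255 to 3951 FPKM with a median of 2306 in Fgl1 LKO. Csad ranged from 76.2 to 281 FPKM with a median of 185 in Fgl1 WT and from 134 to 248 FPKM with a median of 212 in Fgl1 LKO. In each case a few mice at either end set the range, and both genotypes covered most of it.

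Most of this spread was shared. After the genotype means were removed, the 780 pairs of members had a median Pearson r of 0.58 over the 16 mice, with quartiles at 0.34 and 0.72, against a median of 0.06 for the 81530065 pairs of all genes tested. These are descriptions without a test, since all points share the same libraries. The members are mostly of high FPKM, while all genes tested go down to a mean of 0.1 FPKM. Pairs of genes of like level, or of the other lists, were not compared, so the difference cannot be called particular to the members. Of the members' variance, 61.6% lay on 1 common component. Counted by member, replicate 2 of Fgl1 WT and replicate 3 of Fgl1 LKO were each the highest mouse for 13, and replicate 8 of Fgl1 LKO the lowest for 27. The median difference from a gene's mean was 0.26, 0.27 and -0.48 log2 units in those 3 mice.

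The common movement was smaller but still above that of all pairs when 2 of those mice were left out. Without replicates 3 and 8 of Fgl1 LKO the median r was 0.42, against 0.07 for all pairs. It was 0.62 with the run of mouse numbers removed, and 0.52 after median-ratio scaling of the libraries, when that of all pairs was 0.00. What the mice that were most often highest or lowest had in common was not tested.

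Some pairs were close to parallel. The highest r was 0.95, for the neighbours Hal and Amdhd1, and it stayed at 0.93 without the 2 mice farthest from the median of Hal and was 0.96 within each genotype. Gpt with Prodh, Hpd with Cth and Got1 with Hgd each reached 0.94, and Asl with Gls2 reached 0.93. By role, the median r was 0.85 within histidine catabolism, where pairs ran from 0.73 to 0.95, 0.70 within the glutamine and transamination group and within the methionine group, 0.58 within the urea cycle and 0.38 within tyrosine breakdown. Bckdha and Bckdhb, whose products form 1 complex, had an r of only 0.32, and it was -0.16 without replicates 6 and 8 of Fgl1 LKO, the mice farthest from the median of Bckdha. Within Fgl1 WT it was -0.65 and within Fgl1 LKO 0.72.

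Kmo, Tat and Glud1 stood outside the common pattern. Their mean r with the other 39 members was -0.15, 0.10 and 0.12, against 0.52 for Cps1. The lowest value of any pair was -0.72, between Kmo and Csad, and it was -0.50 without replicates 1 and 8 of Fgl1 WT.

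Tat, tyrosine aminotransferase and a well known glucocorticoid target of the liver, followed a pattern of its own. The gene lies at chr8:110717063-110726435 of GRCm39 on the plus strand. It ranged from 403 to 1108 FPKM with a median of 724 in Fgl1 WT and from 447 to 1111 FPKM with a median of 692 in Fgl1 LKO. The genotypes covered the same range, and the mice are therefore also given by the 4 runs into which their numbers were grouped. In the 3 mice numbered 36 to 38 and the 4 numbered 48 to 55, Tat was between 642 and 1111 FPKM. In the 4 mice numbered 69 to 72, 2 of each genotype, it was between 425 and 653 FPKM, and the 5 mice numbered 60 to 64 spanned 403 to 1040 FPKM. What differed between runs of numbers is not stated, and the part of any such difference in Tat was not tested.

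The genes whose levels were most like those of Tat, by r over the 16 mice among 12769 others, began with Tsc22d3 at 0.90, which encodes the glucocorticoid-induced leucine zipper GILZ. Next came Tcim at 0.89 and Irf2bp2, Ccn2 and Klf3 at 0.84 to 0.85. Klf15, a glucocorticoid-induced regulator of amino acid breakdown, was at rank 6 with 0.84, and the clock gene Per1 at rank 8 with 0.83. With the run of mouse numbers removed, r was 0.88 for Tsc22d3, 0.69 for Klf15 and 0.71 for Per1. The median of Klf15 in the 4 runs, in order of number, was 88.9, 79.8, 60.5 and 54.7 FPKM, as values without a test. Tdo2, another gene known to respond to glucocorticoids, had an r of 0.23 with Tat, and of -0.37 with the run removed.

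**Figure D4:**
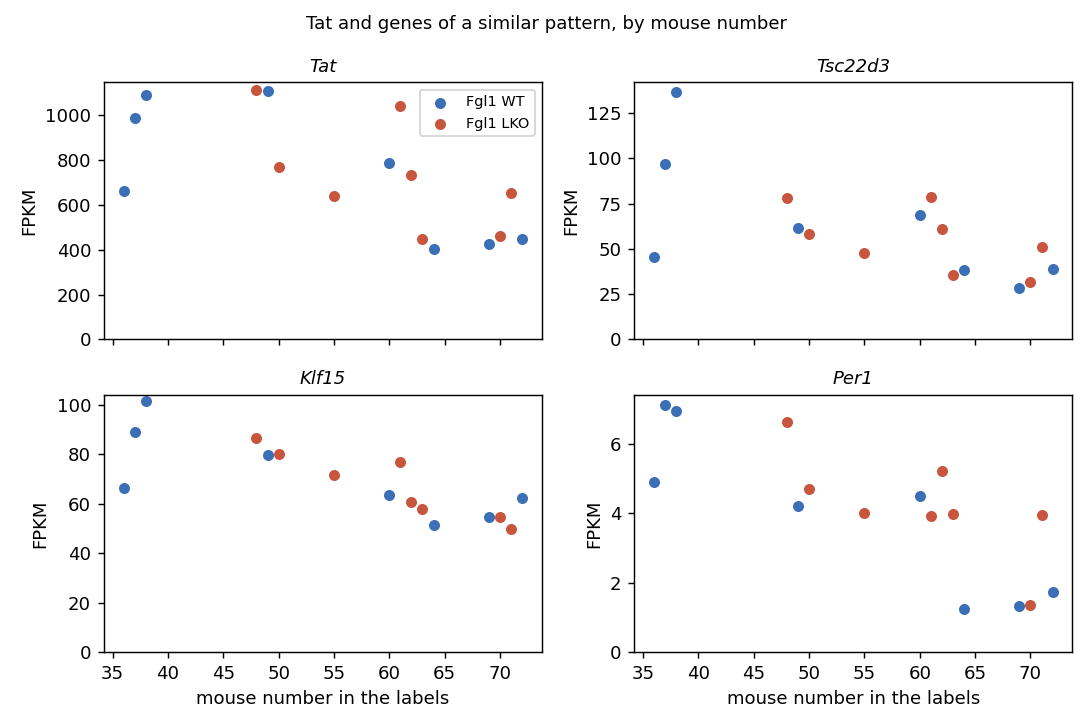
FPKM of Tat and of Tsc22d3, Klf15 and Per1 against the mouse number in the labels, 1 point for each mouse with Fgl1 WT in blue and Fgl1 LKO in red. In all 4 panels the 4 mice numbered 69 to 72 have the lowest median of the 4 runs, 454 FPKM for Tat and 1.54 FPKM for Per1, with some overlap between runs.

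The next comparison asked which members followed the acute phase genes, which differed between mice of 1 genotype far more than any member. A score was taken as the mean log2(FPKM + 1) of Saa1, Saa2, Orm2 and Lcn2, secreted proteins of inflammation, and it ran from 4.03 to 12.1 over the mice. Saa1 alone ran from 63.8 to 16268 FPKM in Fgl1 WT and from 68.4 to 7669 FPKM in Fgl1 LKO. With genotype and score in 1 limma fit, 123 genes fell with the score (0.963%) and 85 rose (0.666%). Of the 40 members 1 fell, Cps1, and none rose. At an unadjusted p under 0.05 there were 16 members, all with slopes below 0, against 18.3% of all genes. That number was 7 after median-ratio scaling, 22 with equal sums, 6 with the run in the fit or without the first run, and 10 without replicate 3 of Fgl1 LKO. Calls among all genes at the adjusted threshold moved too, from 208 in the main fit to 146, 266, 27, 31 and 77, in that order. The share of all genes at an unadjusted p was taken in the main fit only.

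Slopes were below 0 for 37 of the 40 members, with a median of -0.044 log2 units for each unit of score against -0.010 for all genes, of which 8805 of 12770 had slopes below 0. The exceptions were Nags, Kmo and Fah. Related lists leaned the same way, with 56 of 67 further enzymes below 0 at a median of -0.027. So did 13 of 17 genes for transport and ammonia, at -0.014, and 5 of 6 hepatocyte markers, at -0.036. After median-ratio scaling 32 of 40 slopes were below 0, with a median of -0.029 against 0.00 for all genes. Cps1 had a slope of -0.064 ± 0.014 (SE) with an adjusted p of 0.0347 in limma. Since Cps1 was picked by this slope, its correlations are given as a description without a test, over mice that share the same libraries for both measures. Over the 16 mice its r with the score was -0.71 and its Spearman rho -0.64, and r was -0.59 without replicates 5 and 7 of Fgl1 WT, the mice farthest from the median score. Within the genotypes r was -0.70 in the 8 Fgl1 WT mice, or -0.34 without replicates 5 and 7, and -0.97 in the 8 Fgl1 LKO mice. Whether the 2 relations differ was not tested.

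The call for Cps1 depended on how the fit was made, though its slope stayed below 0 throughout. Its adjusted p was 0.157 after median-ratio scaling, 0.176 with the run of numbers in the fit, 0.112 without the first run, 0.149 without replicates 5 and 7 of Fgl1 WT, and 0.0563 to 0.142 without any 1 of replicates 2, 3, 4 or 5 of Fgl1 WT or 3, 4 or 5 of Fgl1 LKO. Among genes that are no members, Slc7a2, an arginine transporter, fell with the score by 0.127 for each unit, and so did Acad8 and Hykk, of valine and lysine breakdown, by 0.048 and 0.098. Some cell type markers went along with the score too. In the same fit 2 of the 4 neutrophil genes tested rose, and 3 of 6 endothelial and 1 of 6 hepatocyte genes fell. The summed level of the neutrophil list ran from 1.00 to 35.1 FPKM in Fgl1 WT and from 3.34 to 28.1 FPKM in Fgl1 LKO, that of the endothelial list from 36.7 to 87.4 FPKM and from 26.2 to 103.9 FPKM, with no gene of either at 0 in all mice. Their part in the slopes of the members was not tested.

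**Figure D5:**
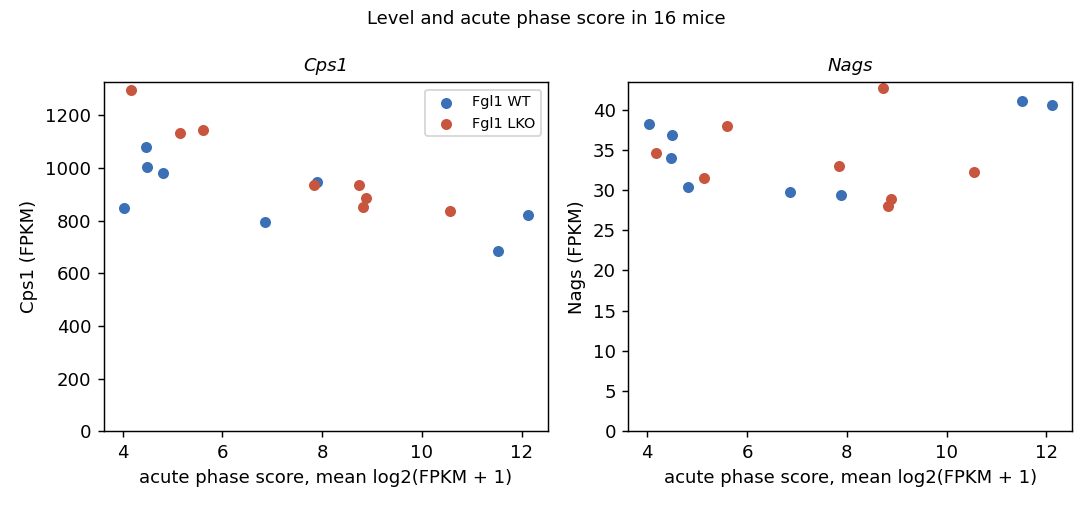
FPKM of Cps1 (left) and Nags (right) in each mouse against the acute phase score, with Fgl1 WT in blue and Fgl1 LKO in red and the vertical axes starting at 0. Cps1 is lower in mice of high score, with r = -0.71 over 16 mice, while the points of Nags show no such fall.

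The last comparison used the genes of fatty acid synthesis, which rise after a meal, since the mice had eaten freely. The score was the mean log2(FPKM + 1) of Fasn, Acaca, Acly, Elovl6, Scd1, Me1, Thrsp and Pnpla3, and it ran from 4.73 to 7.67. Over all genes 70 rose with this score (0.548%) and 2 fell (0.0157%), and no member did either. At an unadjusted p under 0.05 in limma there were 2 members, Haao and Aldh4a1, against 9.05% of all genes. Leaving out replicate 6 of Fgl1 LKO gave 10 such members, with 0.0672 as the smallest adjusted p in limma. Leaving out replicate 4 of Fgl1 WT gave 5, and equal sums gave 6. Calls among all genes at the adjusted threshold were 72 in the main fit and 120, 52 and 102 in those fits, in that order. Their share at an unadjusted p was taken in the main fit only. Slopes were above 0 for 31 of the 40 members and for 7475 of all 12770 genes, with a median of 0.093 log2 units for each unit of score against 0.013 for all genes. That direction rested on replicates 3 and 4 of Fgl1 LKO, the mice farthest from the median score, without which 33 of the 40 slopes were below 0 and the median was -0.078. Over all 16 mice, 51 of 67 further enzymes had slopes above 0, as had 11 of 17 genes for transport and ammonia and 2 of 6 hepatocyte markers. Among these enzymes Qdpr, which recycles the cofactor of phenylalanine hydroxylase, rose with the score by 0.25 for each unit, with an adjusted p of 0.0292 in limma.

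Reads that could stem from more than 1 gene were looked for as stretches of transcript shared between genes. Of the 40, 15 shared no stretch of 32 bases with a transcript of another gene in GENCODE, and 4 shared more than 5% of their stretches. These were Ass1, with 23.5% shared with Gm5424, Aldh4a1, with 22.9% shared with Gm21969, Bhmt, with 24.3% shared with Bhmt1b, and Glud1, with 11.3% shared with 979 genes together. How the authors' counting treated such reads is not given in the sources used here, so the levels of these 4 genes are the least certain.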

How the data were processed

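Liver polyA RNA was sequenced with stranded paired-end libraries on a DNBSEQ instrument. According to the methods and the submitters' processing notes, the authors filtered the reads, aligned them to mm39 with HISAT and to reference genes with Bowtie2, and deposited 1 table of FPKM values with 2 decimals (decimal commas). The counting step, the annotation release and the reads per library are not given in the sources used here. The FPKM values hold no read counts, which leaves out count models, and precision rests on the 8 mice of each genotype. Whether the numbers of the mice mark litters or days is not given either.

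From the deposited values log2(FPKM + 1) was taken, and genes averaging 0.1 FPKM or more were kept. Genotypes and score slopes were fitted over all 12770 genes with limma 3.58.1 in R 4.3.3 (lmFit, eBayes with trend, two-sided, Benjamini-Hochberg, threshold 0.05). The fits were tested on simulated data with errors drawn separately for each gene. The differences and slopes put in were larger than those of any member, so smaller ones and variation shared between genes were not tested. Single members were also compared by two-sided exact permutation tests (scipy 1.17.1, Python 3.11.15). The members, lists and tests were chosen with earlier results of these data known. All members are counted by role. Full values are given for the 7 urea cycle genes, members with an unadjusted p under 0.05, the 5 with the widest spread and those passing a slope threshold, and of the further lists the genes past the threshold or else the 3 of smallest p. Other genes and pairs, such as those named for a high or low r, were picked after their values were seen. Positions are from GENCODE vM39 on GRCm39. The promoter table held 29 of the 40 members, of which 3 had several rows and the first was used. A planned comparison of paralog proteins was not made. Of the genes and motifs listed, 1 further regulator and 1 further motif are not reported here. Alternatives were another pseudocount, filters, scalings, a block of replicate numbers, the 4 runs of mouse numbers, leaving out mice and covariates.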

Additional observations from a re-analysis of the deposited data

Results flagged for a closer look

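In each genotype, the highest or lowest mouse was compared with the others for all 40 members by Dixon's test on log2 values, in which the gap to the nearest mouse is divided by the range of the 8. Of 80 groups of 8 mice 3 passed the limit of 0.526, where chance alone gives about 4. Prodh, proline dehydrogenase, was at 118 FPKM in replicate 7 of Fgl1 WT, with the next mouse at 85.2 FPKM, a gap of 0.578 of the range. Kynu, kynureninase, was at 45.5 FPKM in replicate 8 of Fgl1 LKO, with the next mouse at 67.2 FPKM, a gap of 0.527. Csad was at 76.2 FPKM in replicate 8 of Fgl1 WT, with the next mouse at 152 FPKM, a gap of 0.528. Without that mouse the log2 fold change of Csad was -0.04 in place of 0.14.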

How the results depend on the processing

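No alternative made a member differ between the genotypes, with an adjusted p from 0.481 to 0.953 for the smallest of the 40 over 26 alternatives. The median log2 fold change of the members lay between -0.09 and 0.02. Of all genes 1, Fgl1, was called with equal sums (-3.10, adjusted p 0.0372), the run of mouse numbers in the fit (-3.53, 0.0250), without the first run (-3.71, 0.0452), with the replicate block (-3.11, 0.0197), and when the score of acute phase genes entered the fit, added after seeing the data (-3.27, 7.03e-09). Mice of the same replicate number in the 2 genotypes had a mean correlation of 0.073, against -0.010 for other numbers. The 8 same-numbered pairs ran from -0.16 to 0.45, with 3 over 0.1. The main fit treated the mice as unpaired, and these values cannot exclude a pairing. The labels name no pairs, and replicate numbers only follow the order of the mouse numbers within each genotype. Replicate 1, for instance, is mouse 36 in Fgl1 WT and mouse 48 in Fgl1 LKO. The replicate block is thus an arbitrary grouping, and fits with it do not test a known pairing. Members following the acute phase score numbered 0 after median-ratio scaling (146 of all genes called) and 0 with the replicate block (6). With that block the slope of Cps1 was -0.05, with an adjusted p of 0.884 in limma. Of the 40 slopes 24 were then below 0, with 0 members at an unadjusted p under 0.05. Members called also numbered 0 with the run in the fit (27 of all genes), without the first run (31) and without the 2 farthest mice (30). Equal sums gave 2 members, Cps1 and Ivd, among 266 called genes. Leaving out 1 mouse gave between 0 and 3 members, among 60 to 422 called genes. Signs of small differences turned for Arg1 (0.032 with the run in the fit, 0.074 without the first run), Cth (0.081 and 0.079) and Slc25a15 (0.028 without the first run). Leaving out 1 mouse gave -0.068 to 0.11 for Ass1, -0.0027 to 0.17 for Asl, -0.14 to 0.033 for Arg1, -0.092 to 0.026 for Slc25a15, -0.036 to 0.32 for Got1, -0.078 to 0.13 for Tat and -0.035 to 0.23 for Csad. The median r between members was 0.624 with the run removed, 0.522 after median-ratio scaling and 0.422 without replicates 3 and 8 of Fgl1 LKO, all added after seeing the data. The causes of these changes were not tested. No depth is known, so nothing can be said on counting error, and 8 mice in each genotype leave room for differences of the size of the intervals given.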
